A study of Mus musculus with 2 samples.

Results

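miR-219 and miR-338 are the microRNAs (miRNAs) best known from oligodendrocytes, the cells that wrap axons of the brain in myelin. Their members were chosen by name, as the entries mmu-miR-219 (both arms, miR-219-5p and miR-219-3p), mmu-miR-338-3p and mmu-miR-338-5p of the study's list of known miRNAs, without star entries. For each name the deposited sequence with the listed pair of read counts was found, and every deposited sequence with the same first 18 nucleotides was added. This gave 4 strands of 708 known miRNAs with any read, and 355 of the 789591 distinct sequences, here called tags. The young library came from brains of mice aged 5 months and the old library from brains of mice aged 24 to 25 months. All mice were males of the inbred strain C57BL/6J, no treatment is named in the labels, and each library combined the cDNA of 2 mice. The young library held 4523267 reads and the old library 6658732, as raw counts per tag without normalization. Levels are given below as RPM, the reads of a strand scaled to the total reads of the library. With 1 library per age there was no replicate error, so intervals (95%) and p-values cover the sampling of reads only, and each test compares these 2 libraries and not the ages. Whole brain was used without sorting, so fewer oligodendrocytes and less of a miRNA per cell cannot be told apart, and no mRNA marker of the cell type was measured.

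A miRNA is cut from 1 arm of a hairpin transcript by the enzymes Drosha and Dicer, is loaded into an Argonaute protein and represses mRNAs that pair with its seed, bases 2 to 8. In the oligodendrocyte lineage, miR-219 and miR-338 rise as precursors leave the cell cycle and mature. They are known to repress mRNAs that hold the precursor state, among them those of the growth factor receptor Pdgfra and of the transcription factors Sox6 and Hes5, and mature oligodendrocytes keep them at a high level.

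The 4 strands have 4 different seeds. They are shown because these letters decided which reads were counted. The tag counted by the study for each strand reads, 5′ to 3′ with the seed in capitals:
miR-219-5p: tGATTGTCcaaacgcaattct
miR-219-3p: aGAATTGTggctggacatctgt
miR-338-5p: aACAATATcctggtgctgagtg
miR-338-3p: tCCAGCATcagtgattttgttg
The sequences of miR-219-5p, miR-338-5p and miR-338-3p equal the RefSeq mature sequences. miR-219-3p was taken from the deposited tags, since 1 tag alone held its pair of counts. The pair of counts of miR-338-5p, 2 reads in each library, was held by 3157 tags, and the tag equal to the RefSeq sequence was used. The hairpins, from RefSeq, show where the arms lie, with the mature arms in capitals:
Mir219a-2: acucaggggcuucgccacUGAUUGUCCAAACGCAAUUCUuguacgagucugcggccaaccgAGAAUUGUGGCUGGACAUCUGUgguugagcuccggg
Mir219a-1: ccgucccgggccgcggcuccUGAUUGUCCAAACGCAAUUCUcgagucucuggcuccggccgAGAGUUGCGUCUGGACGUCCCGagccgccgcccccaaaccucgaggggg
Mir338: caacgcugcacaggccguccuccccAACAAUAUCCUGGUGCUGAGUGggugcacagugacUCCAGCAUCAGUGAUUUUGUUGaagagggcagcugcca

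Mir219a-2 lay on chromosome 2 of the NCBIM37 assembly (mm9), chr2:29701151-29701247 on the minus strand, between genes, with Urm1 the nearest at 629 bases. Mir219a-1 lay at chr17:34161928-34162037 on the minus strand, with no protein-coding gene over it, between Ring1 at 303 bases and H2-Ke6 at 941 bases. Mir338 lay at chr11:119876079-119876176 on the minus strand, within the gene Aatk of the same strand and over none of its exons, hence in an intron. miR-219-5p had perfect matches at 2 places in the genome, chr2:29701209-29701229 and chr17:34161997-34162017. miR-219-3p (chr2:29701165-29701186), miR-338-5p (chr11:119876130-119876151) and miR-338-3p (chr11:119876095-119876116) had 1 each. The 3p arm of Mir219a-1, here called miR-219a-1-3p and listed by the study as a star form, is no member. It differs from miR-219-3p at 7 of 22 positions, A4G, T8C, G10T, A17G, T20C, G21C and T22G (the base of miR-219-3p first, positions from its 5′ end), and so has another seed, GAGTTGC.

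**Figure D1:**
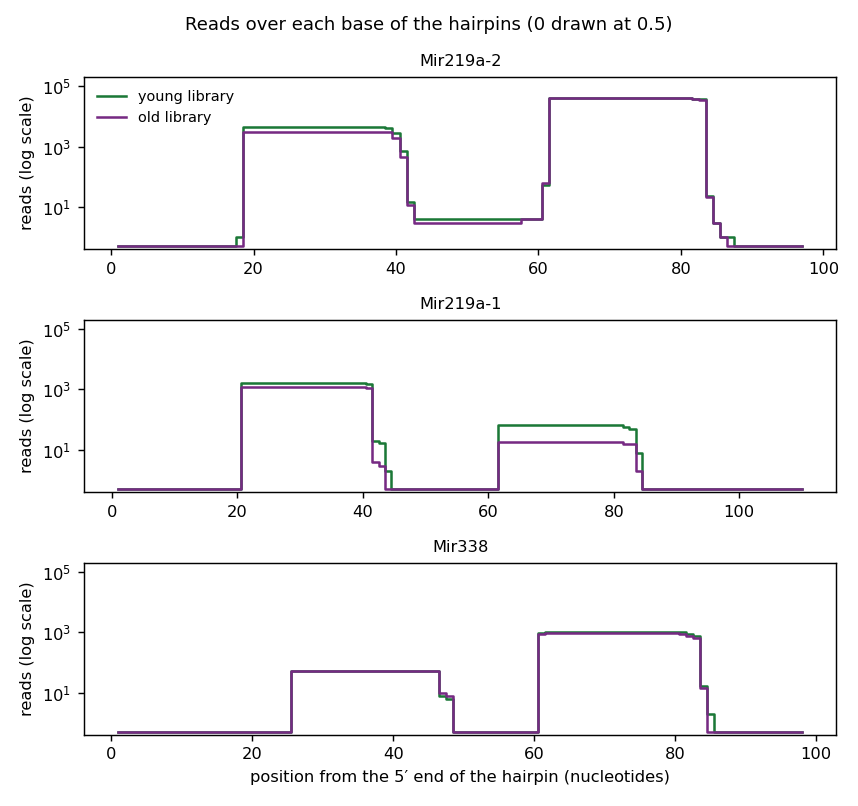
Reads of each library (log scale, 0 drawn at 0.5) over each base of the hairpins Mir219a-2, Mir219a-1 and Mir338, counted from the 5′ end of the hairpin, for tags that match it perfectly within the hairpin. In each hairpin the reads form 1 block per arm. The 5p block of Mir219a-1 consists mostly of reads that fit Mir219a-2 equally well. The 3p arm of Mir219a-2 and that of Mir338 stand far above their 5p arms in both libraries.

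miR-219-3p was the dominant strand, at 11010 RPM in the young library (49800 reads) and 7336 RPM in the old library (48848 reads). Among the 365 known miRNAs with at least 10 reads in a library, miR-219-3p ranked 10 in the young library and 12 in the old library. miR-124, miR-145 and miR-486 were not matched to a RefSeq sequence, and other miRNAs may lack a match too. All such miRNAs are missing from this ranking, so the rank of miR-219-3p over all miRNAs could be lower. The partner strand miR-219-5p had 1016 RPM (4595 reads) in the young library and 493.3 RPM (3285 reads) in the old library. miR-338-3p had 240.3 RPM (1087 reads) and 147 RPM (979 reads) in the same order. miR-338-5p had the lowest level of the 4, with 65 reads (14.4 RPM) in the young library and 64 reads (9.61 RPM) in the old library. The order of the 4 levels was the same in both libraries, and neighbours in it were separated by far more than their counting intervals. Ligation and amplification can differ between sequences, so a difference in RPM between strands need not equal a difference in molecules.

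Together the 4 strands gave 55547 reads (1.23%) in the young library and 53176 (0.799%) in the old library. Of the reads assigned to known miRNAs they held 1.95% and 1.15%. miR-219-3p gave 89.7% of them in the young library and 91.9% in the old library. It exceeded miR-338-3p by 45.8 times in the young library and 49.9 times in the old library.

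**Figure D2:**
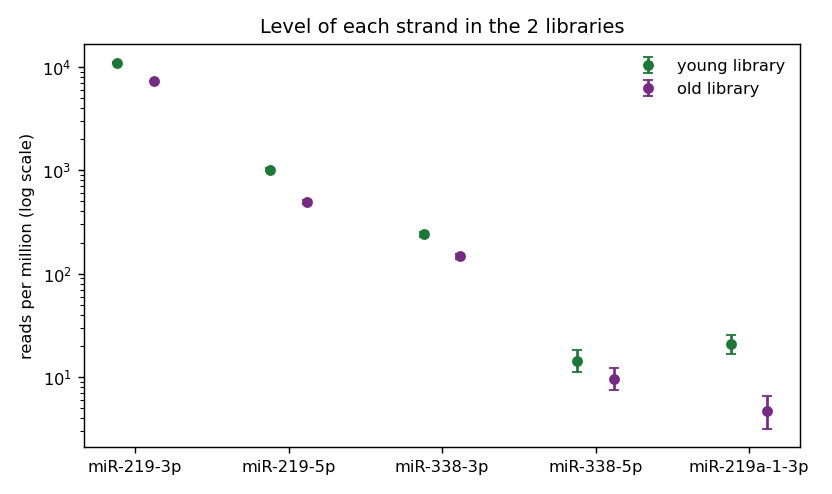
RPM (log scale) of the 4 strands and of miR-219a-1-3p in the young and the old library. Points are the single library of each age and bars the exact 95% counting intervals, which are smaller than the points for the abundant strands. Each strand is lower in the old library, and the order of the 4 members is the same in both.

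The first comparison asked whether these strands differed between the young and the old brain library. All 4 were lower in the old library when scaled by total reads. Known miRNAs as a whole were lower too, so the members are read against them. Over the 365 known miRNAs with at least 10 reads in a library, the median log2 ratio (old over young) was -0.64, with quartiles of -1.09 and -0.17, and 295 were lower in the old library.

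miR-219-5p had the lowest ratio of the 4, with a log2 ratio of -1.04 (interval -1.11 to -0.98), or 2.06-fold lower in the old library. This was 0.40 below the median, at percentile 28.8 of the known miRNAs. miR-219-3p had a log2 ratio of -0.59 (interval -0.60 to -0.57), which was 0.05 above the median at percentile 52.6. miR-338-3p had -0.71 (interval -0.83 to -0.58), at percentile 48.2. miR-338-5p had -0.58 (interval -1.10 to -0.06), at percentile 53.7. The other 3 strands thus lay close to the middle of all known miRNAs, while miR-219-5p lay in their lower part, with its interval below the median.

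By the random sampling model of DEGseq (two-sided, on the reads of the 2 libraries), 4 of 4 members had p under 0.05, where 62.7% of the known miRNAs were called lower by the same rule. 1 of 4 members, miR-219-5p, was at least 2-fold lower, where 31.2% of the known miRNAs were. Neither share sets the members apart from other miRNAs. For miR-338-3p the p was 1.97e-29 (adjusted 8.19e-29). For miR-338-5p, with 65 and 64 reads, it was 0.0211 (adjusted 0.0315). Scaling decided the direction of 2 of the 4 strands. With TMM factors, which set the median of known miRNAs to 0.01, miR-219-3p was at 0.06 and called higher, miR-338-5p was at 0.07 and not called, and miR-338-3p was at -0.06 and no longer called. miR-219-5p stayed lower, at -0.40, and was no longer 2-fold lower. The undetermined base calls were also unequal, in 4.57% of reads in the young library and 1.07% in the old library, and their part in these ratios is given by the counts with such bases allowed: -1.09 for miR-219-5p, -0.64 for miR-219-3p, -0.60 for miR-338-5p and -0.79 for miR-338-3p.

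**Figure D3:**
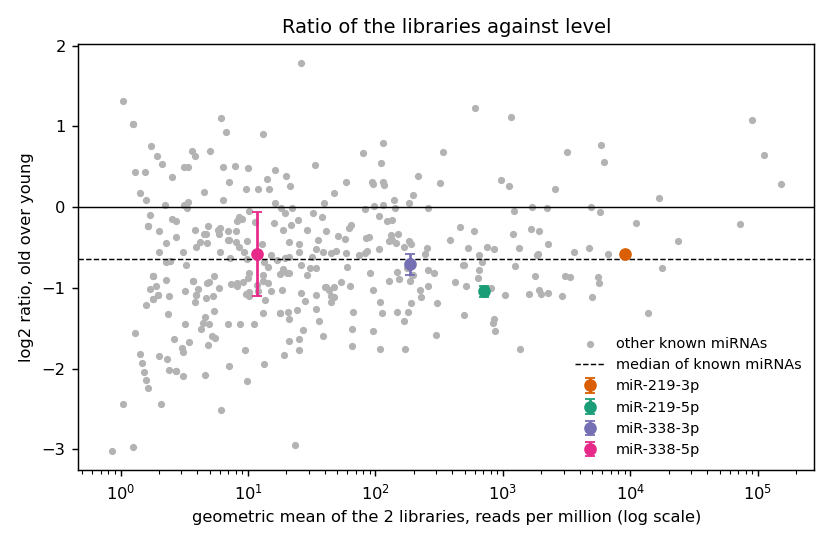
Log2 ratio (old over young, total reads as depth) against the geometric mean RPM (log scale) for the 365 known miRNAs. Coloured points are the 4 members with their exact 95% counting intervals, the dashed line is the median of -0.64 and the solid line is 0. miR-219-3p, miR-338-3p and miR-338-5p sit at the dashed line and miR-219-5p below it.

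The ratio of known miRNAs moved with base composition, by -0.37 log2 units per 10% more GC over the 365 sequences. The members have 38.1% (miR-219-5p), 45.5% (miR-219-3p and miR-338-5p) and 40.9% GC (miR-338-3p). miR-219-5p, the most GC-poor of them, therefore had the lowest ratio of the 4 although GC-poor miRNAs tended to have higher ratios. With a linear correction for GC its ratio was -1.44. The part of base composition in the ratios was not tested further.

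The 3 known miRNAs nearest to each member in level were found by their distance in log2 RPM over the 2 libraries. For miR-219-5p they were miR-298-5p (863 and 468 RPM), miR-33-5p (848 and 495 RPM) and miR-7b-5p (1141 and 569 RPM), with log2 ratios of -0.88, -0.78 and -1.0 in this order. For miR-338-3p they were miR-674-5p, miR-497a-5p and miR-148a-3p, with log2 ratios from -0.84 to -0.76. For miR-219-3p they were miR-103-3p/miR-107-3p (-0.19), miR-140-3p (-0.59) and miR-1839-5p (-0.06), so 2 of its 3 neighbours had ratios nearer to 0 than its own. For miR-338-5p they were miR-25-5p, miR-204-3p and miR-500-3p, with log2 ratios from -0.96 to -0.46. Since both levels entered the choice, the ratios of neighbours are alike in part by construction.

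Other miRNAs described in the oligodendrocyte lineage were counted as a list of 14. Of the 11 with a match and at least 10 reads, 8 were lower in the old library, beside 80.8% of all known miRNAs, 6 of the 11 were called lower with p under 0.05, beside 62.7%, and 1 was called higher. Their median log2 ratio was -0.56, beside -0.64 for all known miRNAs. miR-138-5p, which is also abundant in neurons, fell from 7560 to 4155 RPM (-0.86), and miR-125a-3p had 38 and 23 reads (-1.28). miR-17-5p, of a cluster that promotes division of oligodendrocyte precursors, was the member called higher, with 63 and 128 reads (0.46). By quantitative PCR, the study could not find a large change of miR-17 with age. The other arm of the miR-17 hairpin, miR-17-3p, is not in the list and was lower, with 326 and 324 reads (-0.57). miR-92a-3p of the same cluster was lower, with 98 and 70 reads (-1.04). The median of the list thus lay near that of all known miRNAs.

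Lists for the other cell types of the tissue were measured beside them. The 6 neuronal miRNAs with a match had a median log2 ratio of -0.51, and their summed level was 35295 RPM in the young and 21127 RPM in the old library. miR-124 had no match, so the median and the sum leave it out. A single arm was counted for each name. Of the arms left out, miR-9-3p was higher (1786 and 6166 reads, 1.23) and miR-132-5p was lower (266 and 147 reads, -1.41). The 2 microglial and leukocyte miRNAs with at least 10 reads moved in opposite directions, miR-142a-5p from 28.1 to 40.2 RPM (0.52) and miR-146a-5p from 91.5 to 60.5 RPM (-0.60). The myeloid miR-223-3p had 4 and 5 reads, and miR-155-5p had 2 and 0. miR-150 of the list had no match. The arm miR-150-3p is not in the list and had 11 and 8 reads (-1.02, not called). The endothelial miR-126a-3p had 13.5 and 15.8 RPM (0.23). The red cell miRNAs miR-451a and miR-144-3p summed to 294.9 and 158.9 RPM, and miR-486 had no match. The other arm of the miR-144 hairpin, miR-144-5p, is not in the list and was higher, with 78 and 150 reads (0.39). The part of cell composition in the members' ratios was not tested.

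The second comparison asked how the reads of each hairpin fell on its 2 arms, a share that does not depend on the depth. In Mir219a-2 the 5p arm held 8.45% of the reads in the young library (interval 8.22 to 8.68) and 6.30% in the old library (6.10 to 6.51). The 3p arm thus exceeded the 5p arm by 10.8 times in the young and 14.9 times in the old library. The shift differed by more than the sampling of reads (two-sided Fisher exact test on the reads of the 2 libraries, p = 5.64e-41), and it stood when only tags matching the hairpin were counted by position (9.57% and 7.31%). In Mir338 the 5p arm held 5.64% (4.45 to 7.13) and 6.14% (4.83 to 7.76), a difference within the sampling of reads (Fisher exact test, p = 0.650).

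Shifts of this kind were common. Over 92 hairpins with both arms read, 41.3% were called by the same test after adjustment. The 5p and 3p ratios of Mir219a-2 differed by -0.46 log2 units and those of Mir338 by 0.13, ranking 57 and 73 by size of 92, and the median size was 0.58. The shift of Mir219a-2 was thus smaller than that of most hairpins. Some of the 92 share the same reads, as Mir9-1, Mir9-2 and Mir9-3 do, and Mirlet7a-1 and Mirlet7c-2. Some larger differences rest on few reads, as in Mir410 (-2.21), whose 5p arm had 13 young and 5 old reads.

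miR-219-5p can come from either of 2 genes with the same 21 bases, and only bases beyond these tell them apart. The longer tags carry them, shown with the bases after the shared part in capitals:
Mir219a-2, 1 base longer: tgattgtccaaacgcaattctT
Mir219a-2, 2 bases longer: tgattgtccaaacgcaattctTG
Mir219a-1, 1 base longer: tgattgtccaaacgcaattctC
Mir219a-1, 2 bases longer: tgattgtccaaacgcaattctCG
The tag ending in TG had 716 young and 437 old reads and that ending in CG had 15 and 3. Over all tags at least 2 bases longer, Mir219a-2 held 726 young and 446 old reads and Mir219a-1 held 17 and 3. Mir219a-2 thus gave 97.7% (interval 96.4 to 98.6) of them in the young and 99.3% (98.1 to 99.8) in the old library (Fisher exact test on the reads, p = 0.0368).

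The 3p arms, which differ at the 7 positions given above, gave the same order. miR-219-3p of Mir219a-2 had 49800 and 48848 reads, and miR-219a-1-3p had 94 and 31. Mir219a-1 held 0.188% of these reads in the young and 0.0634% in the old library (Fisher exact test, p = 2.49e-08). miR-219a-1-3p fell from 20.8 to 4.66 RPM, a log2 ratio of -2.16 (interval -2.79 to -1.56) and percentile 2.19 of the known miRNAs. It is also the most GC-rich of the 5 strands, at 63.6%, and with the GC correction its ratio was -1.61.

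The tags of each strand differed at their 3′ ends. For miR-219-3p the counted tag of 22 nucleotides held 36460 of 49800 reads in the young and 34525 of 48848 in the old library. For the other strands the counted tag was not the leading form, so that the count of that tag covers 3.08% to 33.9% of their reads. The leading forms, with the bases from position 19 on in capitals because the strands vary there, were:
miR-219-5p, 22 nucleotides: tgattgtccaaacgcaatTCTT
miR-338-5p, 21 nucleotides: aacaatatcctggtgctgAGT
miR-338-3p, 23 nucleotides: tccagcatcagtgattttGTTGA
In miR-219-5p this form had 2034 young and 1462 old reads, 44.3% and 44.5% of the strand, beside 1471 and 1115 reads of the counted tag (32.0% and 33.9%). In miR-338-3p it had 661 and 554 reads, 60.8% and 56.6%, beside 118 and 101 reads of the counted tag (10.9% and 10.3%). In miR-338-5p it had 45 and 41 reads, while the counted tag had 2 in each library, or 3.08% and 3.13%.

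**Figure D4:**
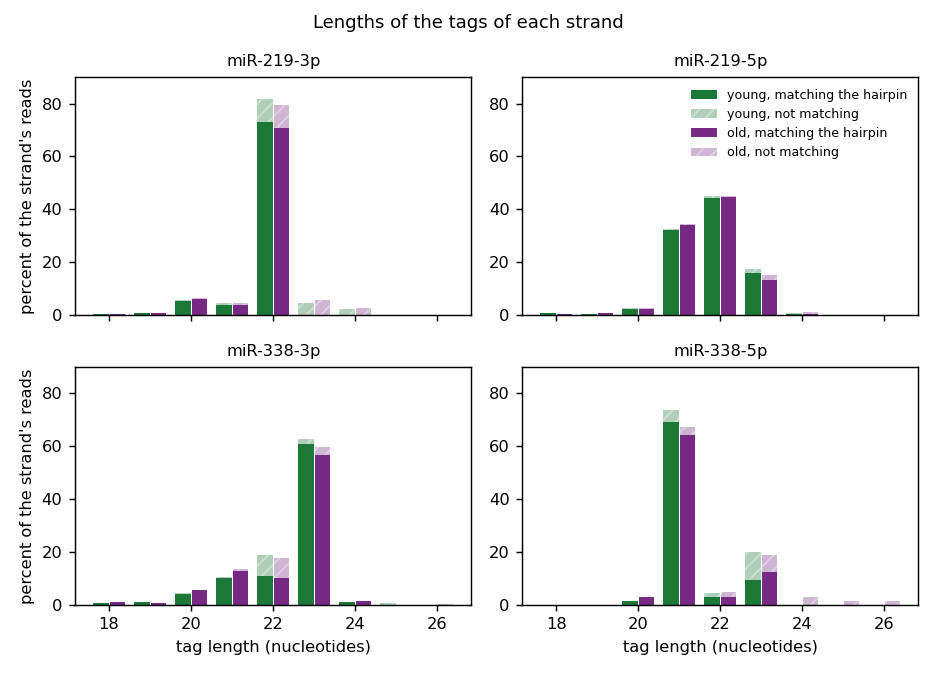
Percent of each strand's reads by tag length, for the young (green) and the old (purple) library. Solid parts match a hairpin to the last base and hatched pale parts do not. The main length is 22 nucleotides in miR-219-3p and miR-219-5p, 23 in miR-338-3p and 21 in miR-338-5p, in both libraries.

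The share of the counted tag differed between the libraries in 1 of 3 strands with at least 100 reads in each, miR-219-3p, at 73.2% (72.8 to 73.6) in the young and 70.7% (70.3 to 71.1) in the old library (Fisher exact test on the reads, adjusted p = 2.93e-17). The same test called 18.4% of 174 known strands. For miR-219-5p the adjusted p was 0.258 and for miR-338-3p 0.859 (Fisher exact test). miR-338-5p was below the minimum of reads.

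Reads whose last bases do not match the hairpin made up 16.5% of miR-219-3p in the young and 18.5% in the old library (Fisher exact test on the reads, adjusted p = 1.87e-14), beside medians of 18.4% and 19.7% over the 174 known strands, of which 21.3% were called. Undetermined bases count as not matching, and they were 0.422% of miR-219-3p in the young library and 0.0164% in the old library. In miR-219-5p the share was 3.85% and 4.29%, near the lowest of the known strands (172 from the top of 174 in the young and 168 in the old library). An added base that equals the next base of the hairpin counts as matching. In Mir219a-2 a U follows the 21 bases of miR-219-5p, so this share misses a U added there. In miR-338-3p it was 11.5% and 11.8%. In miR-338-5p it was 16.9% and 17.2%. None of these 3 differed beyond the sampling of reads (Fisher exact test, p = 0.353, 0.837 and 1 in this order).

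Most unmatched ends were short additions of U or A, which nucleotidyl transferases are known to put on miRNA ends. An added A was as common in both libraries in miR-219-3p, at 5.78% and 5.79%, and among known strands 10.9% were called for this share. Added U in miR-219-3p was at 7.40% in the young and 8.44% in the old library (Fisher exact test on the reads, adjusted p = 3.32e-08), where 14.9% of known strands were called and 124 of 174 were higher in the old library. It was at 0.609% in both libraries in miR-219-5p and at 2.30% and 2.86% in miR-338-3p. The 3 abundant strands thus had unlike shares of scored added U. miR-219-5p lay far below the median of known strands (4.09% and 4.22%) and miR-219-3p above it. These shares are not fully comparable, because a U added to the 21 bases of miR-219-5p counts as matching. It cannot be told from the 22-nucleotide form, with 2034 young and 1462 old reads. After the 22 bases of miR-219-3p the hairpin continues with G, so a U added there is scored.

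The added U of miR-219-3p sat mostly on 1 shortened form. The forms of 20 nucleotides with 1, 2 and 3 added bases show it, with the added bases in capitals:
1 added: agaattgtggctggacatctT
2 added: agaattgtggctggacatctTT
3 added: agaattgtggctggacatctTTT
The form with 2 had 2206 young and 2406 old reads, that with 1 had 180 and 194, and that with 3 had 43 and 59. The unextended 20-nucleotide form had 2683 and 2908 reads. The form with 2 added bases is letter for letter the counted tag with the change G21T, and the letters cannot tell an addition from a changed base. Other G-to-T changes of the counted tag had at most 92 reads in the young library (G2T) and 80 in the old library (G13T). The 3′ adapter also begins with T, and the part of incomplete trimming in the added U was not tested.

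The 5′ end sets the seed, and it was fixed in 3 of the 4 strands. Among reads matching the hairpin, the annotated base began 99.9% of miR-219-3p in the young library and 99.8% in the old library, as did 99.8% in both libraries for miR-219-5p, and all 54 young and 53 old reads did in miR-338-5p. In miR-338-3p the share at another base within 3 was 8.38% (88 of 1050 reads) in the young and 9.06% (86 of 949 reads) in the old library, ranking 42 and 45 from the top of 174 known strands with medians of 1.70% and 1.95%. The 2 libraries did not differ beyond the sampling of reads (Fisher exact test, adjusted p = 0.925), and 10.9% of known strands were called for this share. The shifted forms are shown because each has another seed, in capitals:
miR-338-3p, 1 base later: cCAGCATCagtgattttgttga
miR-338-3p, 2 bases later: cAGCATCAgtgattttgttga
miR-338-3p, 3 bases later: aGCATCAGtgattttgttg
Over all tags with that start, 48 young and 50 old reads began 1 base later, 24 and 25 began 2 bases later and 16 and 11 began 3 bases later. The first of these tags alone had 40 reads in each library.

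Tags with 1 changed base in the first 18 are not in the counts above. This share was examined after its values had been seen. In miR-219-3p, 1 change stood far above the rest, A15G (the base of the genome first, the position from the 5′ end), with the changed base in capitals:
miR-219-3p, A15G: agaattgtggctggGcatctgt
It had 2633 reads in the young and 3285 in the old library, over all 3′ ends, or 5.02% (4.84 to 5.21) and 6.30% (6.10 to 6.51) of the reads with either base. The median over the 54 single changes of miR-219-3p was 0.065% in both libraries. The other 4 A-to-G changes of the strand, A1G, A3G, A4G and A17G, were at most 0.0943% in the young and 0.186% in the old library. The next changes by size were at positions 15 to 17 too. A17C was at 1.02% and 2.26%, C16A at 1.12% and 0.830%, and A15T at 0.656% and 1.01%. The changed tag of 22 nucleotides, with 1605 and 1819 reads, had no perfect match in the genome.

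A-to-G changes at this share were uncommon among known miRNAs. Of 855 A positions in strands with at least 100 reads in each library, 27, or 3.16%, reached 1% in both libraries, and the median was 0.0502% in the young and 0.0489% in the old library. For 8 of the 27 the changed start had a perfect match elsewhere in the genome, as between related miRNA genes, and among the 19 without one A15G of miR-219-3p ranked 9 in the young and 8 in the old library. Among them was also A6G of miR-376b-3p, a site known to be edited from adenosine to inosine, which is read as G, at 84.1% and 79.0%. Over 50 other miRNAs with an A at position 15 the median share was 0.0350% and 0.0480%. Of these, 2 were above miR-219-3p in each library, miR-101c (89.5% and 89.9%) and miR-378b (17.6% and 13.1%). Their changed starts are among those with a perfect match in the genome. The share of A15G in miR-219-3p was higher in the old library (Fisher exact test on the reads, adjusted p = 7.67e-17), where 3.51% of the 855 positions were called in either direction. A17C differed by a larger factor between the same libraries, and the origin of these changes was not tested. None of the other 3 members had an A-to-G change over 1% in both libraries. A4G of miR-338-3p came nearest, with 9 and 11 reads (0.821% and 1.11%).

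**Figure D5:**
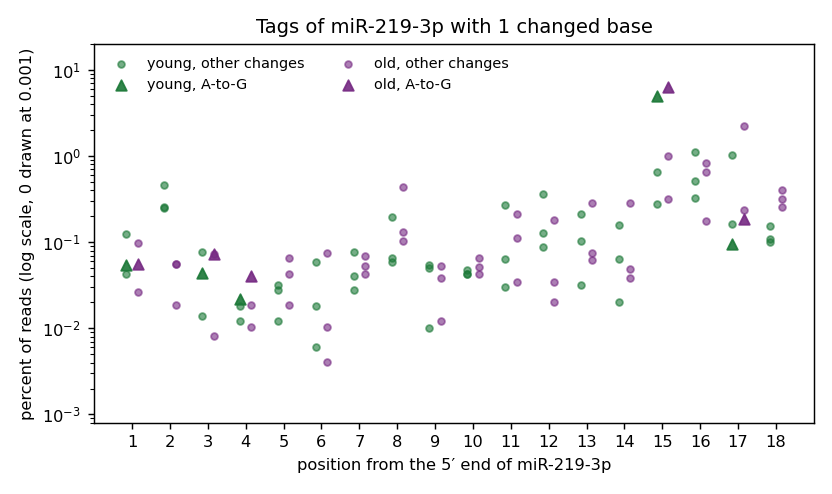
Percent of reads of miR-219-3p with 1 changed base (log scale, 0 drawn at 0.001) against the position from the 5′ end, for the young (green) and the old (purple) library. Triangles are A-to-G changes and circles all other changes, 3 per position and library. The A-to-G change at position 15 stands above all others, at 5.02% and 6.30%.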

How the data were processed

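Small RNAs of 18 to 30 nucleotides were gel-purified from whole brain (10 µg of total RNA per mouse), ligated to adapters, reverse transcribed, amplified and sequenced as reads of 36 nucleotides. The authors removed the 3′ adapter, allowing up to 3 mismatches in it, aligned the reads to mm9 with SOAP and deposited raw read counts per distinct sequence, without normalization. Version numbers of SOAP are not given in the sources used here. No column of other samples was used.

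Members were counted as described in the report. Known miRNAs were the tags with the first 18 nucleotides of a RefSeq mature sequence or of a member, with at least 10 reads in a library. Reads were scaled by the total of the library, with counts of 0 replaced by 0.5. The random sampling model of DEGseq was computed from its formula, and ratio intervals were exact (Clopper-Pearson). Shares were compared by Fisher's exact test with Wilson intervals, adjusted by the Benjamini-Hochberg method over all known strands with at least 100 reads in each library (hairpins with at least 100 reads, for arms). A quasi-likelihood fit by edgeR could not be made without replicate libraries. PCR reads are not independent molecules, so intervals cover counting error only, and 3 reads, the limit that a count of 0 allows, were 0.663 RPM in the young and 0.451 RPM in the old library. The formulas were tested on simulated data.

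Members and lists were chosen with earlier results of these data known. Named miRNAs were the members, all products of their hairpins, the 3 known miRNAs nearest in level to each member, and the cell type lists. miR-376b-3p and the single-base changes were named after their values were seen. miR-145, miR-124, miR-150 and miR-486 of the lists were not matched to a RefSeq sequence. For miR-150 the arm miR-150-3p did have a match, but it was not counted in its list. Alternatives were other depths (known-miRNA reads, total reads without let-7, TMM, DESeq2 size factors), the counted tag alone, the first 20 nucleotides, tags matching the hairpin, tags read at least 2 times, 1 read added, other minimums (none, 50), the exact binomial test and a GC correction. Counting tags with undetermined bases or 1 other base in the start, and A15G at the counted length alone, were chosen after seeing the data. Python 3.11.15, numpy 2.4.6, scipy 1.17.1, R 4.3.3, edgeR 4.0.16 (TMM) and DESeq2 1.42.0 were used.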

Additional observations from a re-analysis of the deposited data

Results flagged for a closer look

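A few reads of both libraries fell in a hairpin loop or on the strand opposite a hairpin. These counts were all small, near the limit of 3 that a count of 0 allows. The loop of Mir219a-2 had 4 reads in the young and 3 in the old library, while the loops of Mir219a-1 and Mir338 had none. Mir219b, the RefSeq hairpin on the strand opposite Mir219a-2, had 4 reads in the young library and 2 in the old library. Mir219c had 1 in each, and no read came from the strand opposite Mir338. The difference between the libraries was not tested.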

How the results depend on the processing

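Scaled by TMM and by the size factors of DESeq2, the log2 ratio of miR-219-3p was 0.060 and 0.053, and that of miR-338-5p was 0.065 and 0.059, both above 0 instead of below (miR-219-3p called higher and miR-338-5p not called), because these factors move all known miRNAs up by 0.65 and 0.64. miR-338-3p stayed lower but was no longer called, at -0.063 and -0.070. miR-338-5p was also not called with its counted tag alone (-0.56, on 2 reads in each library), with a depth without let-7 (-0.21) or with undetermined bases or 1 other base allowed (-0.44). miR-219-5p kept its direction and a p under 0.05 under each alternative tried, from -1.44 with the GC correction to -0.40 with TMM, but was no longer 2-fold lower with its counted tag alone (-0.96), without let-7 in the depth (-0.67), with TMM (-0.40) or with DESeq2's size factors (-0.40). The known miRNAs past 2-fold numbered 122, and 310 with no minimum of reads, 74 with a minimum of 50, 77 without let-7 in the depth, 69 with TMM, 70 with DESeq2's size factors and 58 over the single tags of the study's list. The changes were 8 up and 114 down with total reads, and 36 up and 33 down with TMM. The shares of the counted tag, of unmatched ends, of the arms and of A15G kept direction and call under each alternative tried for them. No paired analysis was possible because each age had 1 library. At the 65 and 64 reads of miR-338-5p the interval of its ratio spans a log2 difference from -1.10 to -0.06, so small differences were not detectable at this depth.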
